A study of Mus musculus with 2 samples.

Results

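Mitochondrial ribosomal proteins are encoded in the nucleus, made in the cytosol and imported into mitochondria, where they assemble with mitochondrial rRNA into the large (Mrpl) and small (Mrps) subunits of the mitoribosome. The genes described here are the protein-coding genes of GENCODE vM21 (GRCm38) whose symbol is Mrpl or Mrps followed by a number. The rule gave 78 of 21951 protein-coding genes, 49 Mrpl and 29 Mrps, spread over 17 chromosomes, and left out 5 annotated pseudogenes with such symbols. The rule rests on symbols alone.

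The question was where SRCAP, the catalytic subunit of the complex that replaces histone H2A by the variant H2A.Z, was detected at these promoters. Both libraries were made from SYAT cells, CGR8 mouse embryonic stem cells (mESCs) in which a degron that responds to auxin (AID) and the yellow fluorescent tag YPet were fused to the C-terminus of SRCAP on both alleles and which express the plant receptor OsTir1. CUT&RUN, in which an antibody directs a nuclease to the chromatin next to its target, was labelled as done with an antibody against GFP, which recognises the YPet tag, in 1 library and with an antibody against SRCAP itself in the other. The line came from 1 homozygous knock-in clone, to which the receptor was added by lentivirus under the EF1a promoter before cells that lost YPet on auxin treatment were sorted. Control cells were grown with auxinole, an inhibitor of OsTir1, and the labels give no treatment for either library. All SRCAP in these cells thus carries the tag and the degron, and neither untagged cells nor cells depleted of SRCAP were analysed here.

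The GFP list holds 28718 peaks and the SRCAP list 28167. Each peak has a whole-number score of at least 13 whose meaning was not stated for these lists, and its median was 47 in both. The lists hold no read counts, so depth is unknown, and there was 1 library per antibody. No test was therefore made between the antibodies or against other genes. Shares are given with 95% Wilson intervals, which cover counting error only and treat genes as independent, which they are not. Nothing in a peak list allows the cell type to be checked.

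The mitoribosome translates the few proteins that mitochondrial DNA encodes, all of them subunits of the oxidative phosphorylation complexes. Many of its proteins descend from those of the bacterial ribosome, and the rest were added during the evolution of mitochondria. H2A.Z is typically found in the nucleosomes that flank the start sites of active genes, and genes for mitochondrial proteins are typically active in every cell type.

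For every transcript of a gene, the promoter ran from 1000 bp before its start site (TSS) to 500 bp after it, and a peak was assigned to it by its midpoint. The DNA just upstream of 8 TSSs is shown first, because these promoters carry the contrasts described below: strong peaks in both lists, a peak in 1 list, no peak despite the same motif letters, and a promoter shared between members. Each stretch is the part nearest the TSS that lies in no annotated exon, read 5′ to 3′ along the strand of the named gene, from the RefSeq copy of GRCm38.p6. Capitals mark exact matches, on either strand, to any of 8 motif consensus sequences, which are CCGGAAGT (ETS factors), CGCATGCGC (NRF1), AAGATGGCG (YY1), CCAATCA (NFY), GGGGCGGGG (SP and KLF factors), TGACGTCA (CRE), CACGTG (E-box) and ACTACAATT (ZNF143).
Mrps12 (- strand, chr7:28741821-28741991): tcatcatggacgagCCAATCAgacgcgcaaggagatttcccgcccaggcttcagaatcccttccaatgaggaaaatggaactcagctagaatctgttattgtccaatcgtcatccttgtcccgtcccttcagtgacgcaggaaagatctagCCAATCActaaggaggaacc
Mrps22 (- strand, chr9:98601661-98601860): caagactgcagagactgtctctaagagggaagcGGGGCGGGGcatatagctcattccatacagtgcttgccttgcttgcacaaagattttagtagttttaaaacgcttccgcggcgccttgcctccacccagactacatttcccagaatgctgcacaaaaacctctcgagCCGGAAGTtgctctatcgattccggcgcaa
Mrpl43 (- strand, chr19:45006443-45006557): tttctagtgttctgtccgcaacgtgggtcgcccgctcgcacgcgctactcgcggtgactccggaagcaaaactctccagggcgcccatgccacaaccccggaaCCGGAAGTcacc
Mrpl46 (- strand, chr7:78783090-78783118): gcccctcgccggcccgcgttgcctcatgg
Mrpl17 (- strand, chr7:105811100-105811299): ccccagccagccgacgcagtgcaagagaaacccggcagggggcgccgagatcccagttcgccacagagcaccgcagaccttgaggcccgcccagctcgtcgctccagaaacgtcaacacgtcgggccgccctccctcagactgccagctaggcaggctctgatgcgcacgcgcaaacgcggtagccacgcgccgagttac
Mrpl10 (+ strand, chr11:97041408-97041559): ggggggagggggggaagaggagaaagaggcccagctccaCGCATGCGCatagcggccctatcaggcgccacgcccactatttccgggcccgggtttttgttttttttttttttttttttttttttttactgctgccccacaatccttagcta
Mrps27 (+ strand, chr13:99344706-99344785): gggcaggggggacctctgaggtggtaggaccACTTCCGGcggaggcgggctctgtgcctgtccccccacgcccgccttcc
Mrpl9 (+ strand, chr3:94443118-94443317): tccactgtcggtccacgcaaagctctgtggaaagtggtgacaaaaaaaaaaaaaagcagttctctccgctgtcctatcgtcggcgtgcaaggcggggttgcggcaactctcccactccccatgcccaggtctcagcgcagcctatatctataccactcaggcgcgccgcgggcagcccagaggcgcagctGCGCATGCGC

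In Mrps12, with a promoter peak of score 225 (GFP) and 275 (SRCAP), the 171 bases shown, part of the 182 bp that separate the start sites of Mrps12 and Sars2, held the NFY letters at 2 places and lay wholly under the peak of each list. The ETS letters stood close to the TSS in Mrps22 and Mrpl43, which had peaks in both lists, and also in Mrps27, which had none. The 29 bases of Mrpl46 separate it from Mrps11 and held none of the motifs. Mrpl17 and Mrpl10 had a peak in the SRCAP list only, and in Mrpl10 that peak began just downstream of the printed bases. In Mrpl9 the NRF1 palindrome was matched on both strands, and neither list had a promoter peak.

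Most mitochondrial ribosomal protein genes had a promoter peak called in at least 1 list. The count was 60 of 78 (76.9%, 66.4 to 84.9), against 43.6% of all protein-coding genes. In the GFP list 53 of 78 promoters had a peak (67.9%, 57.0 to 77.3), where 35% of all protein-coding genes had one. In the SRCAP list the count was 45 (57.7%, 46.6 to 68.0), against 35.6% of all genes. Both lists had a peak at 38 members (48.7%, 37.9 to 59.6) and at 27% of all genes. The lower bounds of all these intervals were above the values for all genes.

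Restricting each list to peaks scored at or above its median left members above all genes as well. It left 36 members in the GFP list (46.2%), 26 in the SRCAP list (33.3%) and 20 in both (25.6%), where all genes gave 22.2%, 23.5% and 16%. The intervals of the members were 35.5 to 57.1, 23.9 to 44.4 and 17.3 to 36.3, so the lower bounds for the SRCAP list and for both lists came close to the values of all genes.

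The number of TSSs per gene bears on such counts, since every TSS adds a window. Members had a median of 4 distinct TSSs and all protein-coding genes a median of 3. With 1 representative TSS per gene, 66.7% of members and 30% of all genes had a GFP peak, and 55.1% and 30.8% had a SRCAP peak. The part of TSS number in the difference was not tested.

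CpG-rich promoters are a second property that members share. The observed over expected CpG ratio of the 300 bp around the representative TSS (250 bp upstream, 50 bp downstream) was at least 0.6 at 72 of 78 members (92.3%) and at 46.9% of all genes. Among the 10292 genes above that ratio, 52.1% had a GFP peak, 53.4% a SRCAP peak and 41% both. The 72 members above it had 69.4% (58.0 to 78.9), 56.9% (45.4 to 67.7) and 48.6% (37.4 to 59.9). Next to CpG-rich genes the members thus had the higher share in each comparison, but only the GFP interval lay above the value of all CpG-rich genes. The intervals for the SRCAP list and for both lists contained that value. With peaks at or above the list median only, CpG-rich members had 47.2% (36.1 to 58.6) in the GFP list against 33.1% of all CpG-rich genes. In the SRCAP list they were then slightly lower, 33.3% (23.5 to 44.8) against 35.6%, and in both lists they had 25% (16.4 to 36.1) against 24.2%.

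**Figure D1:**
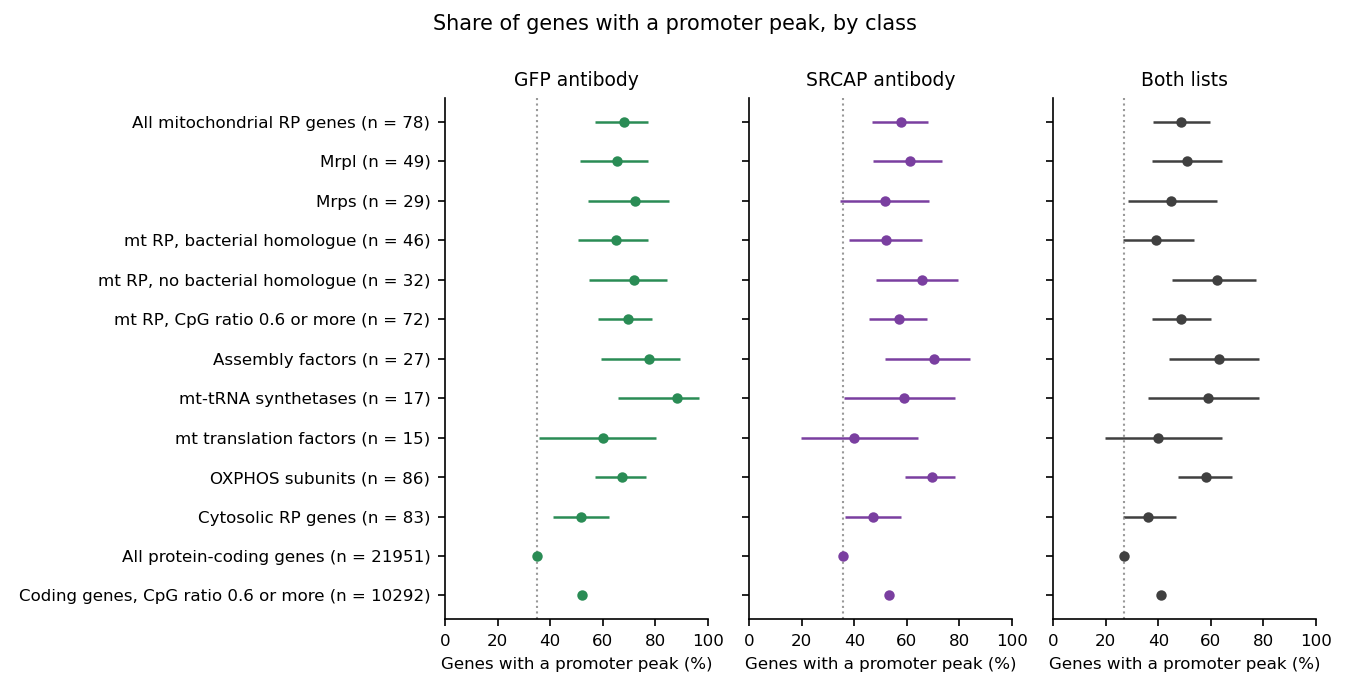
Percentage of genes with a promoter peak in the GFP list, the SRCAP list and both lists, by gene class; points are shares, bars are 95% Wilson intervals, and the dotted line is the share of all protein-coding genes. Mitochondrial ribosomal protein (mt RP) genes sit at 67.9%, 57.7% and 48.7%, to the right of the line in each panel, and CpG-rich coding genes as a whole sit at 52.1%, 53.4% and 41%.

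Of all protein-coding genes, 27.0% had a promoter peak in both lists, 7.98% in the GFP list only, 8.63% in the SRCAP list only and 56.4% in neither. Sorted by status, 38 members (48.7%) had a promoter peak in both lists and 18 (23.1%) in neither. Another 15 members (19.2%) had a peak in the GFP list only and 7 (8.97%) in the SRCAP list only. Those in both lists were Mrpl2, Mrpl11, Mrpl15, Mrpl18, Mrpl22, Mrpl24, Mrpl27, Mrpl28, Mrpl30, Mrpl32, Mrpl37, Mrpl38, Mrpl39, Mrpl40, Mrpl41, Mrpl42, Mrpl43, Mrpl45, Mrpl46, Mrpl47, Mrpl48, Mrpl50, Mrpl51, Mrpl54, Mrpl58, Mrps9, Mrps11, Mrps12, Mrps14, Mrps15, Mrps16, Mrps18a, Mrps18b, Mrps22, Mrps26, Mrps28, Mrps33 and Mrps36. Peaks of the GFP list only were at Mrpl1, Mrpl4, Mrpl14, Mrpl16, Mrpl34, Mrpl35, Mrpl36, Mrps6, Mrps10, Mrps17, Mrps18c, Mrps21, Mrps23, Mrps30 and Mrps35. Peaks of the SRCAP list only were at Mrpl10, Mrpl12, Mrpl17, Mrpl21, Mrpl33, Mrps5 and Mrps31. Without a promoter peak were Mrpl3, Mrpl9, Mrpl13, Mrpl19, Mrpl20, Mrpl23, Mrpl44, Mrpl49, Mrpl52, Mrpl53, Mrpl55, Mrpl57, Mrps2, Mrps7, Mrps24, Mrps25, Mrps27 and Mrps34.

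Most members found with one antibody were also found with the other. Of the 53 members with a GFP peak, 71.7% (58.4 to 82.0) also had a SRCAP peak, against 77.2% over all genes. Of the 45 with a SRCAP peak, 84.4% (71.2 to 92.3) also had a GFP peak, against 75.8%. Both intervals contain the value for all genes. At each of the 38 members found in both lists, a GFP peak and a SRCAP peak overlapped by at least 1 bp. The same count over all genes is not given, so this cannot be called particular to members.

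Large and small subunit genes were close to each other. A GFP peak was at 32 of 49 Mrpl genes (65.3%, 51.3 to 77.1) and at 21 of 29 Mrps genes (72.4%, 54.3 to 85.3). A SRCAP peak was at 30 Mrpl genes (61.2%, 47.2 to 73.6) and 15 Mrps genes (51.7%, 34.4 to 68.6), and both were at 25 (51%) and 13 (44.8%). Each pair of intervals overlapped. Symbols and structure disagree at a few places, since Mrps18a and Mrps30 sit in the large subunit of the known structures and Mrps36 in neither, and with genes sorted by structure both lists had a peak at 26 of 51 large subunit genes and 11 of 26 small subunit genes.

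Members were also sorted, from general knowledge, by whether the protein has a homologue in the bacterial ribosome. Mrps18c was placed with such a homologue. Its namesakes Mrps18a and Mrps18b were placed without one, as was Mrps36, and each of these had peaks in both lists. Another sorting of these genes would change the counts. Of the 46 with a homologue, 30 had a GFP peak (65.2%), 24 a SRCAP peak (52.2%) and 18 both (39.1%, 26.4 to 53.5). Of the 32 without one, 23 had a GFP peak (71.9%), 21 a SRCAP peak (65.6%) and 20 both (62.5%, 45.3 to 77.1). The class placed without a homologue had the higher share in every list, and the intervals of the classes overlapped. With peaks at or above the list median only, the shares in both lists were 26.1% with a homologue and 25% without. They were then 43.5% and 50% in the GFP list, and 30.4% and 37.5% in the SRCAP list. Peaks in 1 list only were at 18 of the 46 genes with a bacterial homologue, 12 GFP and 6 SRCAP, and at 4 of the 32 others. Of all protein-coding genes, 7.98% had a peak in the GFP list only and 8.63% in the SRCAP list only. Whether the origin of the protein bears on these counts was not tested.

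**Figure D2:**
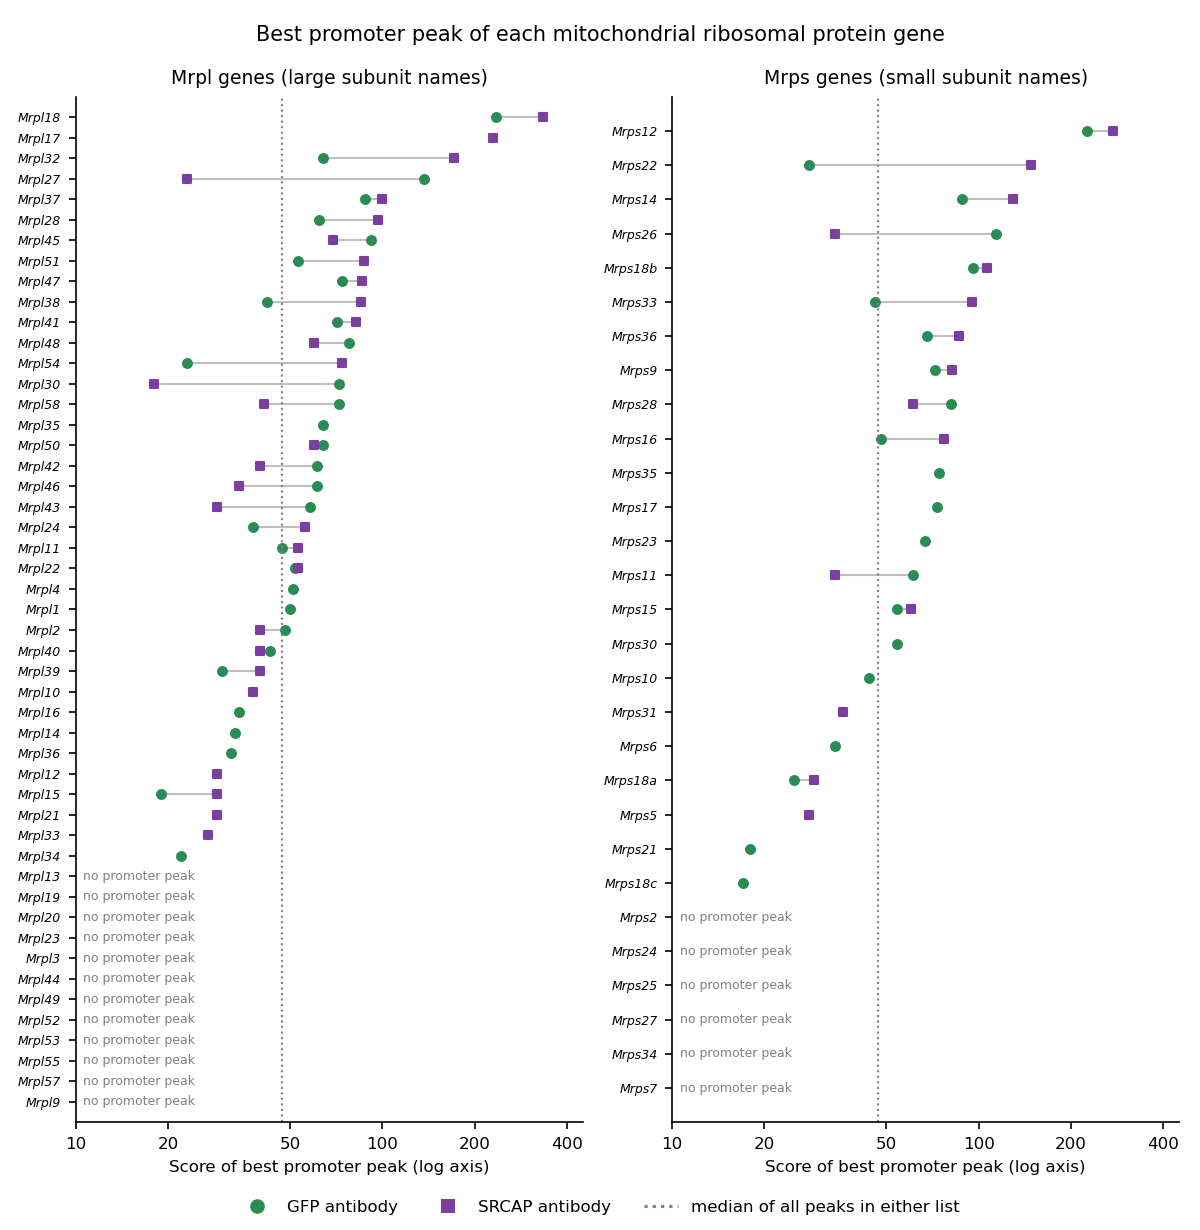
Score of the highest promoter peak of each of the 78 genes in the GFP list (circles) and the SRCAP list (squares), on a log axis, with Mrpl genes left and Mrps genes right; grey lines join the values of 1 gene and the dotted line is the median of each list, 47. Mrpl18 and Mrps12 stand at the top in both lists, and Mrpl17 has a square of 230 and no circle.

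The highest scores were at Mrpl18, whose protein is the mitochondrial counterpart of bacterial L18 (gene ENSMUSG00000057388.9, chr17:12911349-12916345, minus strand). Its GFP peak scored 235 and its SRCAP peak 334. These scores exceeded those of 98.4% and 99.2% of the peaks in their lists. The peaks lay across the TSS, with midpoints at 44 and -63 bp (negative values are upstream), and both were also promoter peaks of Tcp1, a subunit of the cytosolic chaperonin CCT whose TSS is 37 bp away on the opposite strand.

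Mrps12, the counterpart of the S12 protein of the decoding centre, followed in both lists, with 225 (GFP) and 275 (SRCAP). Its peaks, with midpoints at -147 and -224 bp, covered the NFY letters printed above and were shared with Sars2, the mitochondrial seryl-tRNA synthetase. Other members were high in both lists too. Mrps14 had 88 and 129, Mrps18b 96 and 106, and Mrpl37 88 and 100 (GFP first, SRCAP second). The first of them had no coding gene head to head, while Mrps18b shared its peaks with Ppp1r10 and Mrpl37 with Cyb5rl.

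The remaining high scores were high in 1 list and lower in the other. Mrpl27, counterpart of a bacterial protein near the peptidyl transferase centre, had 137 (GFP) and 23 (SRCAP), peaks that also lay in the promoter of Eme1. Mrps26 had 114 and 34, and Mrpl45, which contacts the inner membrane near the peptide exit, had 92 and 69. On the other side, Mrpl32, which matures through cleavage by a mitochondrial inner membrane protease, had 64 (GFP) and 171 (SRCAP). Mrps22 had 28 and 148. Scores of the 2 lists are not on a known common scale, so only their places within a list can be compared. Mrpl27 exceeded 93.8% of GFP peaks and 11.4% of SRCAP peaks, and Mrps22 16.7% and 94.6%.

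Over the 38 members in both lists, the rank correlation of the best scores across genes was 0.27, and across the 5931 protein-coding genes in both lists it was 0.56. These points share the cell line and the promoters themselves, and genes are not independent replicates.

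Members found in 1 list only had the lower median score in each list. Best scores were below the list median at 8 of the 15 GFP members and 6 of the 7 SRCAP members of this kind. The 15 members of the GFP list only had best scores from 17 to 74 with a median of 44, and the 38 in both lists had GFP scores from 19 to 235 with a median of 61.5. For the 7 members of the SRCAP list only the range was 27 to 230 with a median of 29, against 18 to 334 and 60.5 for those in both. The values overlap widely in each list, and 9 GFP and 13 SRCAP peaks of members in both lists were below the list median.

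Mrpl17 was the exception among members of the SRCAP list only. The gene (ENSMUSG00000030879.10, chr7:105803206-105811099, minus strand) had a SRCAP peak of score 230 at -143 bp, over 183 of the 200 bases printed above, a score above 98.2% of that list. The nearest GFP peak, with a score of 28, had its midpoint 58771 bp away. The other 6 members of the SRCAP list only had scores from 27 to 38.

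In the GFP list only, 7 members had a score at or above 47. Mrps35 had 74, Mrps17 73, Mrps23 67, Mrpl35 64, Mrps30 54, Mrpl4 51 and Mrpl1 50. They encode proteins of both subunits, among them the counterpart of L1 from the mobile stalk beside the tRNA exit (Mrpl1) and of L4, which lines the peptide tunnel (Mrpl4). The midpoint was upstream of the TSS at Mrps35 (-194 bp), Mrps17 (-116 bp), Mrps23 (-439 bp), Mrps30 (-218 bp) and Mrpl4 (-225 bp), on the TSS at Mrpl35 and downstream at Mrpl1 (187 bp).

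Promoter peaks of members centred near the TSS. The 58 distinct GFP peaks had a median midpoint of -31.5 bp (quartiles -179 and 74.5) and the 50 SRCAP peaks -25.5 bp (quartiles -157 and 67.8). Over all protein-coding genes the medians were -116 bp (quartiles -260 and 22) in the GFP list and -79 bp (quartiles -203 and 17) in the SRCAP list. Measured from 1 representative TSS per gene, the SRCAP median of members was 25 bp, downstream of the TSS. Midpoints lay within 300 bp of a TSS for 52 GFP and 45 SRCAP peaks, and upstream of it for 60.3% (47.5 to 71.9) and 60% (46.2 to 72.4). The window reaches 1000 bp upstream but 500 bp downstream, so these counts are partly set by the rule. The same counts over all genes are not given, and no preference for upstream positions can be read from them.

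**Figure D3:**
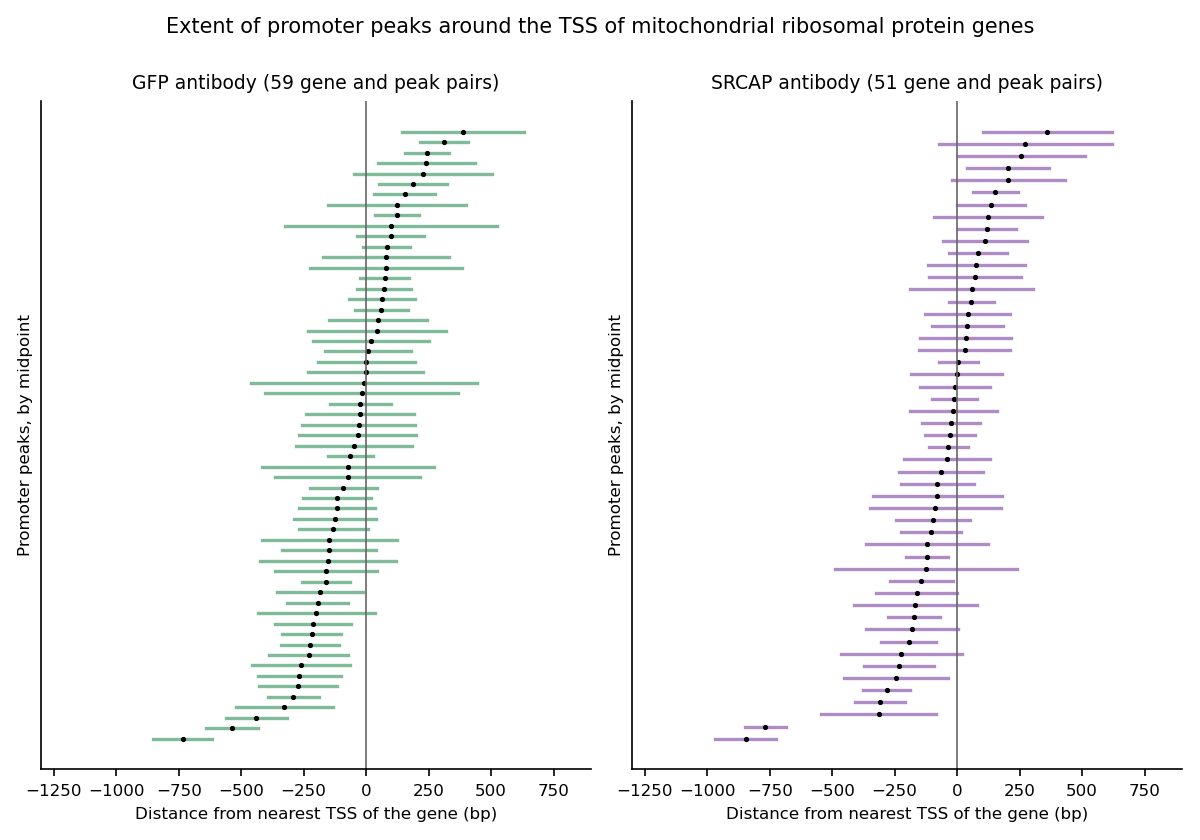
Extent (coloured line) and midpoint (black dot) of each promoter peak relative to the nearest TSS of its gene in bp, ordered by midpoint, for the GFP list (left, 59 gene and peak pairs) and the SRCAP list (right, 51 pairs); negative distances are upstream. Midpoints run from -734 to 387 bp in the GFP list and from -846 to 361 bp in the SRCAP list, and most lines cross or touch the TSS at 0.

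Width and score of these peaks were like those of promoter peaks in general. The median width was 328 bp in the GFP list and 332.5 bp in the SRCAP list, where promoter peaks of all coding genes had 334 and 296 bp. The median score was 53.5 and 53, against 53 and 54 for all. Of the GFP peaks, 40 of 58 overlapped a SRCAP peak (69%, 56.2 to 79.4), and of the SRCAP peaks, 41 of 50 overlapped a GFP peak (82%, 69.2 to 90.2), against 68.8% and 68.4% of all promoter peaks of coding genes. The lower bound for the SRCAP peaks stood just above the value for all. Shared peaks of members had the higher median score, 61.5 (GFP) and 60 (SRCAP), and peaks without a partner had 34 and 36.

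A few members had several promoter peaks. Mrpl48 had a peak in both lists at 3 of its start regions, where the GFP scores were 52, 78 and 72 and the SRCAP scores 40, 40 and 60. The last pair also lay in the promoter of Rab6a. Mrpl58, a peptidyl-tRNA hydrolase that became part of the large subunit, had 2 pairs, with GFP scores of 32 and 72 and SRCAP scores of 41 and 30.

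Elsewhere the lists divided the promoter differently. At Mrpl2, 1 GFP peak of 906 bp (score 48) covered 2 of the 3 SRCAP peaks (25 and 31), and the third SRCAP peak (40) lay farther upstream at -768 bp. Mrpl42 had 1 GFP peak (61) and 2 SRCAP peaks (29 and 40). Mrpl4, Mrps9 and Mrps10 had 2 GFP peaks each, the weaker scoring 32, 13 and 24, and none of these weaker peaks was met by a SRCAP peak.

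Head-to-head arrangement was frequent. A protein-coding gene on the opposite strand started within 1000 bp upstream at 21 of 78 members (26.9%, 18.3 to 37.7) and at 6.98% of all protein-coding genes. The gap between the start sites ranged from 29 to 935 bp with a median of 81 bp. Peaks in such gaps belong to both promoters and cannot be assigned to either gene.

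Among the 21 head-to-head members, 15 had a GFP peak (71.4%), 15 a SRCAP peak (71.4%) and 13 both (61.9%, 40.9 to 79.2), the interval of the first and second shares being 50.0 to 86.2. All 1532 head-to-head coding genes had 64.6%, 66.8% and 55.7%, which these intervals contain. The 57 members without such a neighbour had a GFP peak at 38 (66.7%, 53.7 to 77.5), a SRCAP peak at 30 (52.6%, 39.9 to 65.0) and both at 25 (43.9%, 31.8 to 56.7), against 32.8%, 33.3% and 24.9% of coding genes without one. Members without such a neighbour thus also had the higher shares, next to genes not matched for CpG ratio. Neighbours were sought from 1 representative TSS per gene, while a peak at any TSS counted, so not every counted peak lay in the shared promoter. The only promoter peaks of Mrpl14 (GFP) and Mrps5 (SRCAP) were at another TSS, outside the promoters of their neighbours Tmem63b and Zfp661. Some peaks of these members still lay in another coding promoter, as at Mrpl2 (Klc4), Mrpl27 (Eme1) and Mrpl54 (Apba3). The part of shared promoters in the difference was not tested.

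Mrpl46 and Mrps11 are head-to-head members of the large and the small subunit, with start sites 30 bp apart on chromosome 7. They shared 1 peak in each list, a GFP peak of score 61 (463 bp wide) and a SRCAP peak of score 34 (158 bp wide), and the 29 bases between them, printed above, lay under both. Partners at other members included Hira (Mrpl40), a histone chaperone, Ncapd2 (Mrpl51), a condensin subunit, Fau (Mrpl49) and Twnk (Mrpl43), the mitochondrial DNA helicase. Mrpl40 had 43 and 40, Mrpl51 53 and 87, Mrpl43 58 and 29, and Mrpl49 had no peak.

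The 18 members without a promoter peak were mostly far from any. Their nearest midpoint was at a median distance of 9982.5 bp in the GFP list and 8498.5 bp in the SRCAP list. Mrps34 had the nearest GFP peak, of score 79 at 1243 bp. Mrps2 had the nearest SRCAP peak, of score 124 at -1669 bp, and a GFP peak of score 162 at -1612 bp. These 2 genes were the only members of this kind with a midpoint within 2500 bp.

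The 18 were as CpG-rich as the other members. Their CpG ratio had a median of 0.822, next to 0.764 at members with peaks in both lists, 0.877 with a GFP peak only and 0.745 with a SRCAP peak only. Of the 18, 16 were at 0.6 or above (88.9%), whereas over all protein-coding genes without a peak the share was 29.5% and the median 0.303. Median GC content was 61.2% at the 18 and 57% at the 60 members with a peak.

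**Figure D4:**
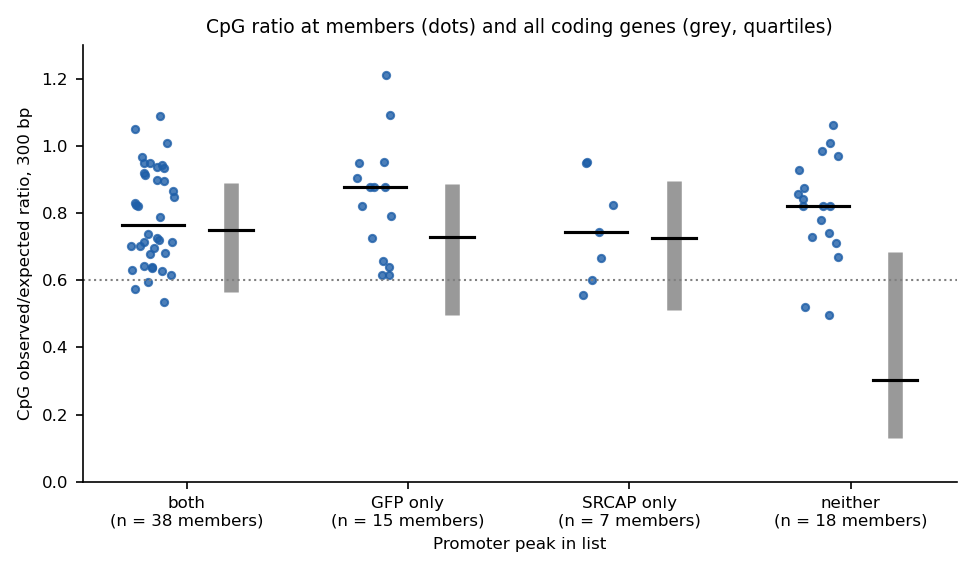
CpG observed over expected ratio of the 300 bp promoter by peak status: dots are members with their median as a black line, grey bars are the quartiles of all protein-coding genes of the same status with their median, and the dotted line is 0.6. Members without a peak sit as high (median 0.822) as members with peaks, while coding genes without a peak have a median of 0.303.

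Motif letters that are known from genes of mitochondrial proteins were found in the 300 bp promoters, with or without a peak. The ETS letters stood in 13 of 78 members (16.7%, 10.0 to 26.5), in 5.02% of all coding promoters and in 8.96% of those with a CpG ratio of at least 0.6. The YY1 letters stood in 8 members (10.3%, 5.29 to 19.0), against 1.86% and 3.54%. Both intervals lay above both reference values. For the cytosolic ribosomal protein genes the shares were 16.9% (ETS) and 6.02% (YY1).

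NRF1 letters were in 5 members (6.41%, 2.77 to 14.1), an interval above the 2.51% of all promoters that contained the 4.24% of CpG-rich ones. The shares of the other motifs were nearer to those of all promoters. NFY was in 8 (10.3% against 9.15%), the SP and KLF box in 14 (17.9% against 15.4%), the E-box in 5 (6.41% against 7.71%) and CRE in 2 (2.56% against 2.48%), and the ZNF143 letters were in none, against 0.56% of all. Among CpG-rich promoters the SP and KLF box was in 18.1% of members (10.9 to 28.5) and 26.4% of all genes. At 34 members none of the 8 motifs was found, which says only that these exact letters are not in the window.

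Letters were sought at 1 representative TSS per gene, while a peak counted at any TSS, so the letters and the peak can lie apart. At Mrpl33 the ETS letters belong to the TSS at chr5:31613939. Its only promoter peak, in the SRCAP list, lies at chr5:31596560-31596746. Counted in this way, the ETS letters were as frequent at members with a peak as at those without, 10 of 60 and 3 of 18, both 16.7%. Of the 13 members with these letters, 9 had a GFP peak and 8 a SRCAP peak, and of the 65 others 44 and 37. All 8 members with the NFY letters had a promoter peak, 6 in both lists (Mrpl2, Mrpl32, Mrpl37, Mrpl50, Mrps9 and Mrps12), 1 in the GFP list (Mrps30) and 1 in the SRCAP list (Mrps31). With so few genes the share with a GFP peak, 7 of 8, had an interval of 52.9% to 97.8%, which contains the 65.7% of members without the letters. Over all protein-coding genes the 2009 with the NFY letters had a GFP peak at 52.2%, a SRCAP peak at 52.5% and both at 44.4%, against 33.3%, 34.0% and 25.3% of those without.

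**Figure D5:**
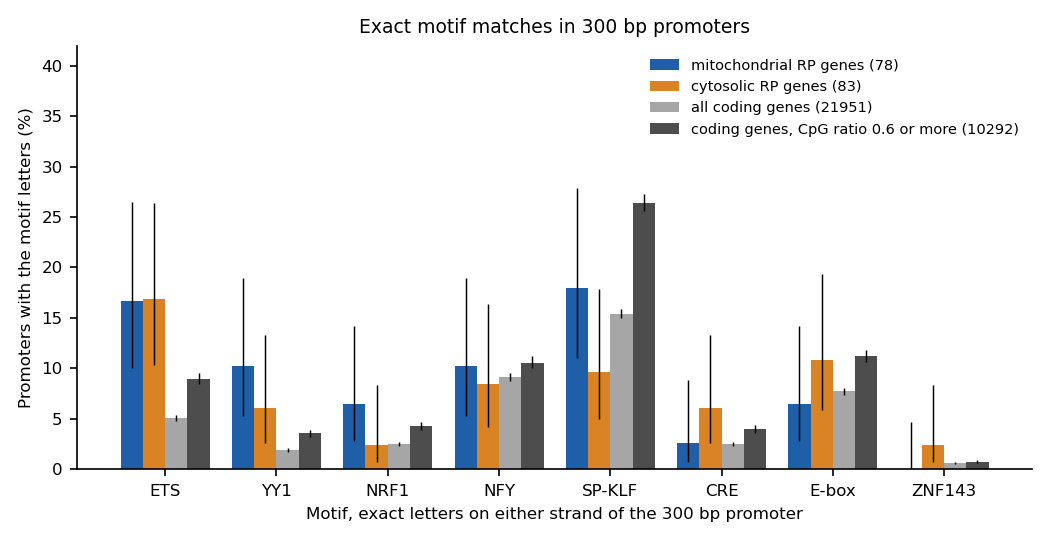
Percentage of 300 bp promoters with an exact match to each motif on either strand, for mitochondrial ribosomal protein genes, cytosolic ribosomal protein genes, all protein-coding genes and those with a CpG ratio of at least 0.6; bars start at 0 and error lines are 95% Wilson intervals. ETS letters are in 16.7% of members and 5.02% of all genes, and YY1 letters in 10.3% and 1.86%.

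Peaks outside the promoter but inside the gene were present at 10 members in the GFP list (17 peaks) and 8 in the SRCAP list (16 peaks). These were 12.8% (7.12 to 22.0) and 10.3% (5.29 to 19.0) of members, below the 25.3% and 25% of all protein-coding genes, and members were also shorter, with a median gene length of 7.90 kb against 17.4 kb. The part of gene length in this difference was not tested. Mrps27, with no promoter peak, had 2 shared pairs within the gene, with GFP scores of 54 and 99 and SRCAP scores of 136 and 51. Mrps28, a long gene, had 3 such GFP peaks and 4 SRCAP peaks.

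The members on chromosome 8, Mrpl34 and Mrps31, had a weak peak each, 22 (GFP) and 36 (SRCAP), and this chromosome held 2555 GFP and 2965 SRCAP peaks. Without them the shares were 68.4%, 57.9% and 50% (GFP, SRCAP and both). Mrps31 also had a shared pair inside the gene, with scores of 83 and 120.

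Other genes of mitochondrial translation had promoter peaks as well, and the shares of all protein-coding genes were 35% (GFP) and 35.6% (SRCAP). Of 27 assembly factors of the mitoribosome, 21 had a GFP peak (77.8%, 59.2 to 89.4), 19 a SRCAP peak (70.4%, 51.5 to 84.1) and 17 both. Among them Eral1, a GTPase that binds the small subunit rRNA, had 173 and 104, Tfb1m, the rRNA dimethyltransferase, 158 and 172, and Noa1 52 and 297. Of 17 mitochondrial tRNA synthetases, 15 had a GFP peak (88.2%, 65.7 to 96.7) and 10 a SRCAP peak (58.8%, 36.0 to 78.4), with all 10 in both lists.

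Translation factors and accessory proteins were fewer in number. Of 15, 9 had a GFP peak (60%, 35.7 to 80.2) and 6 a SRCAP peak (40%, 19.8 to 64.3), against 35% and 35.6% of all genes. The SRCAP interval contained the value of all genes. The highest peaks were at the release factor Mtrf1l (428 and 193), while the elongation factor Tufm had a GFP peak of 51 only. Of 5 mitoribosomal proteins that carry other names, Ptcd3 had 58 and 18, Gadd45gip1 had a GFP peak of 68, and Dap3, Aurkaip1 and Chchd1 had none. Their shares, 40% (GFP, 11.8 to 76.9) and 20% (SRCAP, 3.62 to 62.4), had intervals that contained the values of all genes. Of 6 genes for mitochondrial transcription, Tfb2m had 96 and 99 and the polymerase Polrmt 49 and 82, whereas Tfam had a SRCAP peak of 33 only and Tefm a GFP peak of 30 only. Mterf1a and Mterf1b had no promoter peak. The share was 50% in each list (18.8 to 81.2), an interval that contained the values of all genes.

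The products of mitochondrial translation join nucleus-encoded subunits of oxidative phosphorylation, and those 86 genes had a GFP peak at 67.4% (57.0 to 76.4), a SRCAP peak at 69.8% (59.4 to 78.5) and both at 58.1% (47.6 to 68.0). The 83 cytosolic ribosomal protein genes had 51.8% (41.2 to 62.2), 47% (36.6 to 57.6) and 36.1% (26.6 to 46.9). Members lay between these classes in the SRCAP list and in both lists, and level with oxidative phosphorylation in the GFP list, and the intervals of members overlapped those of each class. The cytosolic genes were CpG-rich at 81.9% and those of oxidative phosphorylation at 70.9%, and 9.64% and 22.1% had a head-to-head coding gene.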

How the data were processed

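CUT&RUN peaks of 2 libraries of SYAT mESCs, 1 per antibody, were analysed, grouped by their titles. Per the labels, 100000 cells were fixed in 0.1% formaldehyde for 5 min and read as pairs of 75 nt. Only its label gives CUT&RUN as the assay of the GFP library, since the methods describe CUT&Tag with that antibody.

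The authors deposited 1 list per library with the position and score of each peak. Peak names show MACS2 calling per library, and the submitters' processing notes name STAR, Picard, MACS2, mm10 and dm6. The study's reporting summary gives default MACS2 calling against an input and a q-value cut-off of 0.05, without saying whether this covered CUT&RUN. The lowest score, 13, equals the whole part of 10 times -log10 of that q-value, so the score may be that quantity, which also grows with depth.

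Python 3.11.15, pandas 2.3.3, scipy 1.17.1, pysam 0.24.0 and matplotlib 3.10.9 were used. The representative TSS was that of the protein-coding transcript ranked first by APPRIS, support level and length. Overlap meant at least 1 bp. Windows, overlaps and motif searches were tested on simulated data. Alternatives were the window, the TSS set, overlap in place of midpoint, a score threshold, the overlap rule and the sequence window.

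Members, gene lists and classes were chosen with earlier results of these data known, and roles, homologues and pathway lists come from general knowledge. Members are named by status, with values for the 8 highest scores per list, single-list peaks at or above the list median, several promoter peaks, peaks within 2500 bp of members without a promoter peak, chromosome 8, and shared promoters. Other genes with values are examples chosen after their values were seen. With no replicates, no p-value is given.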

Additional observations from a re-analysis of the deposited data

How the results depend on the processing

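Of 95 main counts, shares and medians under alternative settings, 78 stayed within a tolerance and 17 did not, nor did 2 of 8 motif counts. The tolerance was a factor of 1.5 for counts, the Wilson interval for shares and a 95% binomial interval of the median for medians, so it includes changes such as 53 to 36 members in the GFP list at the score threshold. Members had the higher share than all protein-coding genes in each of the 18 combinations of setting and list, which overlap and are not matched for CpG ratio. Against CpG-rich genes at the score threshold, CpG-rich members were lower in the SRCAP list (33.3% against 35.6%). There they had 25% against 24.2% in both lists and 47.2% against 33.1% in the GFP list. The score threshold moved most. With peaks at or above the list median only, members numbered 26 in the SRCAP list and 20 in both lists, Mrpl genes 16 and 12, and Mrps genes 8 in both, while all protein-coding genes numbered 4864 (GFP), 5159 (SRCAP) and 3507 (both), as fewer peaks entered. Overlap of member peaks with the other list was 81.1% (GFP) and 96.2% (SRCAP) for such peaks, and 41.4% and 48% where a reciprocal overlap of 50% was asked. No shares of all coding promoter peaks are given under these rules, so the values cannot be called particular to members. Taking coding genes with a CpG ratio of at least 0.6 as the reference raised it to 52.1%, 53.4% and 41% (GFP, SRCAP, both). In the 1500 bp window the median GC content of members was 51.7% and the CpG ratio 0.637, with NFY letters in 14 and the E-box in 19 members. The median midpoint of SRCAP peaks changed sign, from -25.5 to 25 bp, with 1 TSS per gene. The comparisons with CpG-rich genes, without head-to-head members and without chromosome 8 were chosen after seeing the data. Depth is unknown, so absence of a peak says only that none was called. No paired analysis was possible because there is a single library for either antibody.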
